A study of Homo sapiens with 30 samples.

Results

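The genes described here are *APAF1* and 6 caspases (*CASP1*, *CASP2*, *CASP6*, *CASP8*, *CASP9* and *CASP10*), the rows of the count table whose Ensembl identifiers carry these symbols, 7 of the 39359 genes in that table. They were followed through all 30 RNA-seq libraries of a study in which p53 was returned to a cell line that lacks it. All 7 are among the 21335 genes that passed the filter on low counts. *CASP1* passed through the groups in which it was high, and *CASP10* also passed in a fit of the control libraries alone. Of the 7, 5 had at least 10 counts in every library.

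Caspases are proteases that cut after aspartate and are made as inactive precursors. In the mitochondrial pathway cytochrome c released from mitochondria assembles *APAF1* into the apoptosome, which activates the initiator caspase-9, and the initiators then cut executioner caspases that dismantle the cell. Caspase-8 and caspase-10 are instead activated at death receptors, caspase-2 on the PIDDosome, and caspase-1 on inflammasomes, where it matures interleukin-1 beta. p53 is a transcription factor that, among many other genes, is known to induce several components of these pathways.

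The cells were H1299, a human lung carcinoma line without p53, transfected with pGFP (GFP alone) or with a vector that also expressed p53. That p53 was wild type, the RW mutant altered at codon 248 in the DNA-binding domain, or p53 O6-meG, read from a vector with an O6-methylguanine on the template strand of codon 248. The p53 TM cells, named for transcriptional mutagenesis, received the O6-meG vector after 10 µM O6-bzG, which inactivates the repair enzyme AGT. No other group was given O6-bzG, so the compound itself and the lesion under inhibited repair cannot be told apart. Expression was transient, from TRE-tight promoters, and after 6 h and 24 h the GFP-positive cells were collected by sorting. In RNA from such pools of cells, a change in the number of expressing cells and a change in RNA per cell cannot be told apart.

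Each library held between 32302699 and 71950532 counts (median 44424643). Among the 6 h libraries, 2 carry titles that name both p53 O6-meG and p53 TM (replicate 2), and these were left out of the tests. All other groups had 3 biological replicates, and p53 O6-meG and p53 TM had 2 each at 6 h. The carcinoma line markers *KRT8*, *KRT18* and *VIM* were high in all 30 libraries (at least 111, 272 and 1934 CPM, counts in a library scaled to 1000000). Of the markers of other cell types, *PTPRC* had at most 2 counts, *CD68* at most 12, *ALB* at most 36 and *PECAM1* at most 40, whereas *HBB* reached 162 to 1196 CPM. The summed markers, nearly all *HBB*, gave 544 to 598 CPM with pGFP, 422 to 497 with wild type p53, 341 to 437 with RW mutant p53, 163 to 292 with p53 O6-meG and 314 to 347 with p53 TM at 6 h. The corresponding ranges at 24 h were 705 to 1198, 398 to 1000, 354 to 855, 258 to 724 and 290 to 711 CPM, and their part in the results below was not tested. *CDKN1A*, a p53 target used as a check of the labels, was at 34.1 to 43.6 CPM with pGFP and 242 to 262 CPM with wild type p53 at 6 h, 261 and 269 CPM with p53 O6-meG, and 57.9 and 65.9 CPM with p53 TM. In the conflicting libraries it was at 50.2 CPM where the genotype field gives p53 O6-meG and at 250 CPM where it gives p53 TM, and no group was drawn from these values.

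Wild type p53 raised *APAF1*, *CASP6* and *CASP10* at 6 h, and raised these and *CASP1* at 24 h, when *CASP2* and *CASP9* fell. Changes were called by edgeR's quasi-likelihood test at a Benjamini-Hochberg adjusted *P* below 0.05 over all genes tested, with no limit on fold change. At 6 h 3 of the 7 members rose, where 8.68% of all genes tested rose and 1.59% fell. At 24 h 4 members rose and 2 fell, where the response was broad and 20.5% of genes rose and 14.5% fell. Among these rises *CASP1* (24 h) entered the test through the groups in which it was high. *CASP10* (both times) also passed the filter in a fit of the pGFP libraries of both times. It did not pass in a fit of only the pGFP and wild type libraries at 6 h. With at least 10 counts required in every library, 5 members could be tested. *APAF1* and *CASP6* were then called at 6 h, and at 24 h these and *CASP2* and *CASP9*. The median log2 fold change of the members was 0.49 at 6 h and 1.99 at 24 h, beside 0.02 and 0.01 over all genes tested. These medians are the values of *CASP1*, which was not called at 6 h, and of *CASP10*, both of low count, and are given as a description only. With RW mutant p53 edgeR called 0 members at either time, the same number as at an unadjusted *P* below 0.05 and by DESeq2, and it called 0.00469% of all genes at each time.

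The members called with p53 O6-meG moved in the direction they took with wild type p53, whereas p53 TM cells showed no called change at 6 h and fewer at 24 h. With p53 O6-meG 2 members rose against pGFP at 6 h, where 4.32% of genes rose and 0.530% fell. At 24 h 4 rose and 2 fell, where 18.1% of genes rose and 11.3% fell. These rises included *CASP1*, which entered the test through the groups in which it was high, and *CASP10*, of low count. With p53 TM edgeR called 0 members against pGFP at 6 h, as it did at an unadjusted *P* below 0.05 and as DESeq2 did, where 0.192% of genes rose and 0.00937% fell. At 24 h 2 members rose with p53 TM, where 9.00% of genes rose and 1.68% fell.

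Set against wild type p53 directly, p53 TM lowered 3 members at 6 h, where 8.14% of genes were lower and 2.77% higher. At 24 h 4 members were lower and 1 higher, where 11.9% of genes were lower and 9.29% higher. Against p53 O6-meG, the same vector without O6-bzG, p53 TM lowered 3 members at 6 h, where 3.37% of genes were lower and 0.731% higher, and at 24 h it lowered 4 and raised 1, where 6.58% were lower and 3.47% higher. An edgeR fit of only these groups called 0 members at 24 h. In both comparisons the lower members included *CASP10*, of low count, and at 24 h also *CASP1*, which entered the test through the groups in which it was high. With at least 10 counts required in every library, *APAF1* and *CASP6* were called lower at both times in both comparisons, and *CASP9* higher at 24 h. Placing the conflicting libraries by their genotype field left 0 members called at 6 h in both comparisons and for p53 O6-meG against pGFP, with *APAF1* at -1.33 on the log2 scale between p53 TM and wild type p53 (adjusted *P* = 0.0871). Placing them by the first part of their title ended no call at 6 h. Between p53 O6-meG and wild type p53 edgeR called 0 members at 6 h, with 1 at an unadjusted *P* below 0.05 and 0 by DESeq2, and 0 of all 21335 genes (0%). At 24 h it called 0 members, also at an unadjusted *P* below 0.05 and by DESeq2, and 0.00937% of all genes. Comparisons against the same control group share its libraries and are not independent of each other.

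Promoter sequences of 5 of the 7 members, with 9 start sites, were found in RefSeq (GRCh38.p14). *APAF1* and *CASP6*, which rose at both times, and *CASP2* and *CASP9*, which fell at 24 h, are shown 5′ to 3′ on the strand of the gene, as the part of the 250 bases upstream of a RefSeq start that no GENCODE v44 exon covers. Capitals mark matches, on either strand, to the GC box GGGCGG or to the 10-base p53 half-site of the consensus, and matches that overlap run together.
APAF1, chr12:98645114-98645289, plus strand: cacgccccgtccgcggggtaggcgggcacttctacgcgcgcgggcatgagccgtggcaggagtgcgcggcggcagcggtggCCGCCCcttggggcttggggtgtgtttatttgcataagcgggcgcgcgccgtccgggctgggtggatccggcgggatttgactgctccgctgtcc
CASP6, chr4:109703584-109703695, minus strand: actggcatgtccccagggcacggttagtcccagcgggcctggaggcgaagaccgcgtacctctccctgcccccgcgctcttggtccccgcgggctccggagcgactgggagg
CASP2, first of 2 starts, chr7:143288101-143288214, plus strand: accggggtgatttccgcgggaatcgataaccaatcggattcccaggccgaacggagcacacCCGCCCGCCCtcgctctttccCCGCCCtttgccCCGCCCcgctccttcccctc
CASP9, second of 2 starts, chr1:15524890-15525040, minus strand: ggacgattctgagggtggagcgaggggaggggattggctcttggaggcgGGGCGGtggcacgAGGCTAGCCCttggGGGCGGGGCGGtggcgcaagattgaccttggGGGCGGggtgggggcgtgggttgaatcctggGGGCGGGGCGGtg
The *APAF1* stretch holds 1 GC box, the *CASP2* stretch 4 and the *CASP9* stretch 6, with 1 half-site match in the last. The *CASP6* stretch holds 0 matches, though 3 GC boxes lie elsewhere in the 300 bases around its start. The second *CASP2* start, not shown, has 0 matches to either motif. The first *CASP9* start, also not shown, has 8 GC boxes and 0 half-site matches in the 300 bases around it. Over the 300 bases around each start, 6 of the 9 member starts hold a GC box and 2 hold a half-site match (1 start each of *CASP8* and *CASP9*), beside 45.0% and 6.63% of the 35116 promoters of the table. A match is a description of letters and not of binding.

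*APAF1* (ENSG00000120868.13, chromosome 12, 98645290 to 98735433 of hg38, plus strand), the scaffold of the apoptosome, rose with wild type p53 at both times. Its level at 6 h was 38.9, 36.5 and 42.7 CPM in the 3 pGFP libraries and 177, 182 and 200 CPM in the 3 wild type libraries. At 24 h the pGFP libraries gave 57.4, 53.1 and 53.5 CPM and the wild type libraries 369, 280 and 237 CPM. Every wild type library lay above every pGFP library at each time, and replicate 1 was the highest of the wild type libraries at 24 h. The rise was 4.74-fold at 6 h (log2 2.25 ± 0.20, SE, adjusted *P* = 6.78e-09) and 5.40-fold at 24 h (log2 2.43 ± 0.20, adjusted *P* = 5.84e-10). The difference between the responses at 24 h and 6 h was 0.19 ± 0.27 on the log2 scale (95% interval -0.37 to 0.74) and did not pass the test.

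RW mutant p53 left *APAF1* in the range of the controls, with 36.4, 37.6 and 40.3 CPM at 6 h and 59.1, 53.9 and 50.8 CPM at 24 h. The difference from pGFP was -0.05 ± 0.19 on the log2 scale at 6 h (95% interval -0.45 to 0.35) and within -0.40 to 0.40 at 24 h. With p53 O6-meG the libraries gave 139 and 104 CPM at 6 h and 349, 247 and 211 CPM at 24 h. These lay above pGFP throughout, and at 6 h both lay below all 3 wild type libraries. The rise over pGFP at 6 h was 3.09-fold (adjusted *P* = 7.28e-06), and the difference from wild type p53 was -0.62 ± 0.22 on the log2 scale, which did not pass the test over all genes (adjusted *P* = 0.356, or 0.0088 with the replicate number as a block). At 24 h the rise was 4.92-fold and the difference from wild type p53 was -0.13 ± 0.19 (95% interval -0.52 to 0.25).

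With p53 TM, *APAF1* stood at the control level at 6 h and between control and wild type at 24 h. Its 2 libraries gave 37.8 and 43.1 CPM at 6 h, and the 3 at 24 h gave 234, 138 and 117 CPM. At 6 h they overlapped pGFP, and at 24 h all 3 lay above pGFP and below all 3 wild type libraries. Against wild type p53 the level was 4.61-fold lower at 6 h (log2 -2.21 ± 0.23, adjusted *P* = 2.57e-07) and 1.81-fold lower at 24 h (log2 -0.86 ± 0.19, adjusted *P* = 0.00201). This gap narrowed by 1.35 ± 0.29 on the log2 scale between the times (adjusted *P* = 0.0114), and *APAF1* was the 1 member for which edgeR called the change of the gap, where 1.27% of genes changed upward and 0.178% downward. The narrowing was 1.26 without replicate 1 of p53 TM at 6 h (adjusted *P* = 0.121), and 0.47 with the conflicting libraries placed by genotype field (adjusted *P* = 0.858). The call against wild type p53 at 24 h was lost in a fit of only the groups compared (adjusted *P* = 0.0767) and with the conflicting libraries placed by genotype field (adjusted *P* = 0.108). The difference was -0.86 on the log2 scale in both, and neither setting moved a 24 h library to another group. Against p53 O6-meG the level was 3.00-fold lower at 6 h (adjusted *P* = 0.000107) and 1.65-fold lower at 24 h (adjusted *P* = 0.0154), when the groups overlapped but each p53 TM library lay below the p53 O6-meG library of the same number. The call held with the replicate number as a block, and in the fit without it was lost without replicate 1 of p53 O6-meG (adjusted *P* = 0.120) or without replicate 2 or 3 of p53 TM (adjusted *P* = 0.0958 and 0.116).

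Placed on a scale from the pGFP mean (0%) to the wild type mean (100%), *APAF1* with p53 TM was at -1.04% and 2.55% at 6 h, and at 74.7%, 34.6% and 25.9% at 24 h. With p53 O6-meG it was at 67.6% and 43.8% at 6 h and at 122%, 80.0% and 65.1% at 24 h. Over the 10 groups the order of mean levels was RW mutant p53, pGFP and p53 TM at 6 h, RW mutant p53 and pGFP at 24 h, p53 O6-meG at 6 h, p53 TM at 24 h, wild type p53 at 6 h, and then p53 O6-meG and wild type p53 at 24 h. Of the 9 neighbouring pairs in this order 6 overlapped in range. Exons of *APAF1* share 750 bases with *ANKS1B* on the opposite strand, and whether reads were assigned by strand is not stated.

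**Figure D1:**
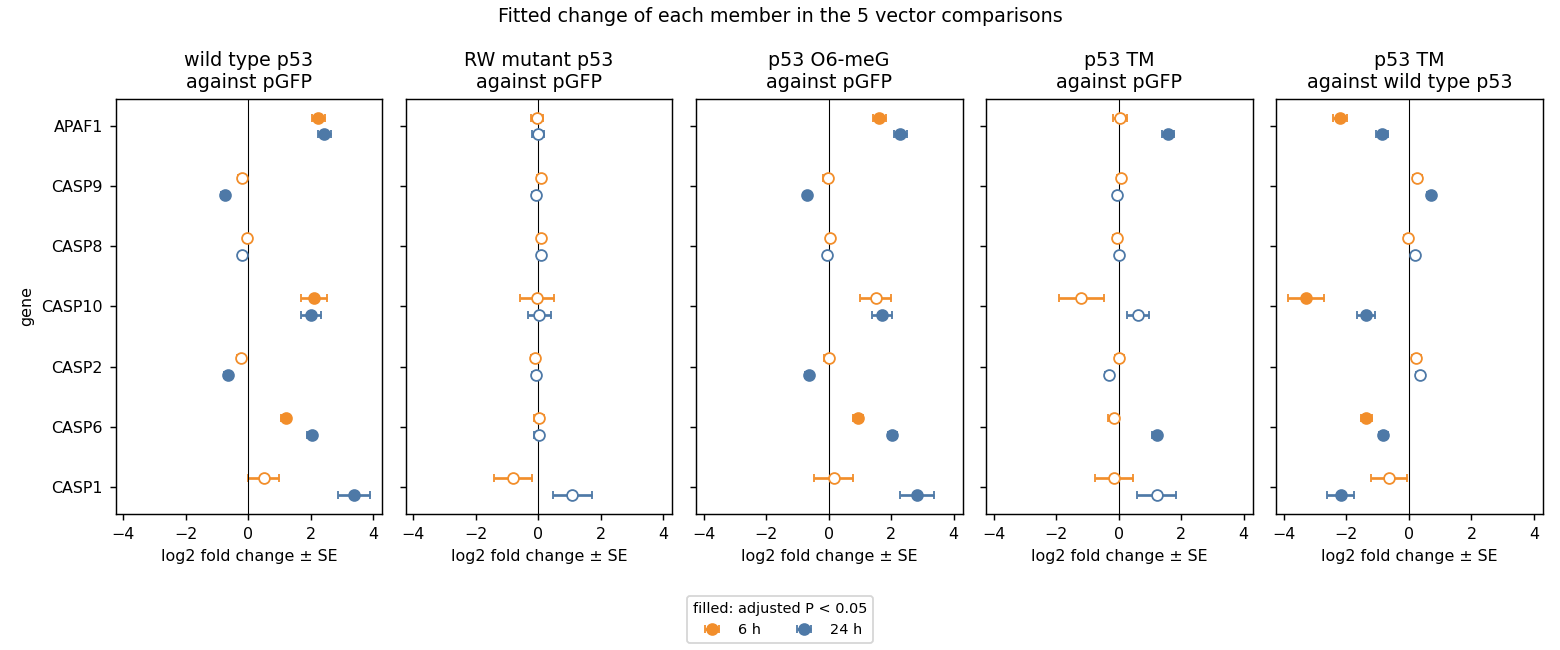
Fitted log2 fold change with its standard error (SE) for each gene at 6 h and 24 h in 5 comparisons, filled where the adjusted *P* is below 0.05. *APAF1* moved by 2.25 and 2.43 with wild type p53 and by 0.04 and 1.58 with p53 TM, and the RW mutant panel has no filled point.

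*CASP9* (ENSG00000132906.17, chromosome 1, 15490832 to 15526534, minus strand), the initiator that the apoptosome activates, moved the other way from its scaffold at 24 h. The pGFP libraries gave 18.4, 17.5 and 14.7 CPM at 24 h and the wild type libraries 8.79, 11 and 10.5 CPM. With p53 O6-meG the libraries gave 9.23, 11.8 and 10.5 CPM, and with p53 TM 13.8, 16.8 and 18.5 CPM. The wild type and p53 O6-meG libraries all lay below those of pGFP, and the p53 TM libraries overlapped pGFP. The level fell 1.67-fold with wild type p53 (log2 -0.74 ± 0.12, adjusted *P* = 2.11e-05) and 1.60-fold with p53 O6-meG (adjusted *P* = 8.24e-05). It was 1.62-fold higher with p53 TM than with wild type p53 (adjusted *P* = 0.00018) and 1.55-fold higher than with p53 O6-meG (adjusted *P* = 0.00141), and differed from pGFP by -0.04 ± 0.12 on the log2 scale.

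At 6 h *CASP9* was at 9.85, 9.18 and 9.62 CPM with pGFP and at 8.16, 8.52 and 8.29 CPM with wild type p53. The groups did not overlap, but the difference of -0.20 ± 0.12 on the log2 scale did not pass the test (adjusted *P* = 0.427). In pGFP cells *CASP9* was 1.77-fold higher at 24 h than at 6 h (adjusted *P* = 6.99e-06), so that the wild type level at 24 h was near the control level at 6 h. The wild type response at 24 h was lower than at 6 h by -0.54 ± 0.17, with an adjusted *P* of 0.0558, or of 0.013 with the replicate number as a block. RW mutant p53 gave 10.6, 9.53 and 9.95 CPM at 6 h and 17.0, 17.2 and 13.6 CPM at 24 h, overlapping pGFP at both times. *CASP9* shares 101 exonic bases with *CELA2B* on the opposite strand.

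*CASP8* (ENSG00000064012.21, chromosome 2, 201233443 to 201361836, plus strand), the death receptor initiator, was the member that differed least between vectors. At 6 h it was at 28.6, 29.0 and 28.3 CPM with pGFP and 28, 28.9 and 27.1 CPM with wild type p53. At 24 h these were 19.4, 20.2 and 22.7 CPM and 17.1, 19.4 and 17.7 CPM. The groups overlapped at both times, and the 24 h libraries of both vectors lay below those at 6 h. The fold change with wild type p53 was -0.03 ± 0.09 on the log2 scale at 6 h (95% interval -0.23 to 0.16) and -0.20 ± 0.10 at 24 h (adjusted *P* = 0.115, or 0.0427 with the replicate number as a block). In pGFP cells *CASP8* was 1.38-fold lower at 24 h than at 6 h (adjusted *P* = 0.000397). Over the other vectors it ranged from 25.6 to 32.1 CPM at 6 h and from 16.9 to 23.6 CPM at 24 h, and it passed the test in none of the vector comparisons. It shares 343 exonic bases with a long non-coding RNA on the same strand.

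*CASP10* (ENSG00000003400.14, chromosome 2, 201182872 to 201229428, plus strand), the initiator encoded beside *CASP8*, was rare, with 1 to 48 counts per library, and rose with wild type p53. The pGFP libraries at 6 h held 3, 4 and 4 counts (0.0608, 0.0874 and 0.0697 CPM) and the wild type libraries 9, 10 and 32 counts (0.211, 0.228 and 0.472 CPM). At 24 h the pGFP libraries each held 10 counts (0.266, 0.227 and 0.230 CPM) and the wild type libraries 40, 46 and 38 (0.999, 0.990 and 0.902 CPM). No library of one group reached the other at either time. The rise was 4.27-fold at 6 h (log2 2.09 ± 0.41, adjusted *P* = 0.000799) and 3.99-fold at 24 h (log2 1.99 ± 0.32, adjusted *P* = 1.66e-05). The pGFP level itself was 3.23-fold higher at 24 h than at 6 h (adjusted *P* = 0.00341).

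With p53 O6-meG *CASP10* had 10 and 7 counts at 6 h (0.225 and 0.192 CPM) and 25, 48 and 21 counts at 24 h (0.732, 1.02 and 0.601 CPM). With p53 TM it had 1 and 2 counts at 6 h (0.0226 and 0.0358 CPM) and 18, 11 and 22 counts at 24 h (0.451, 0.255 and 0.399 CPM). At 6 h the p53 O6-meG libraries lay above pGFP and those of p53 TM below it. The p53 O6-meG rise at 6 h of 1.5 ± 0.50 on the log2 scale missed the threshold (adjusted *P* = 0.095), and at 24 h it was 3.29-fold (adjusted *P* = 0.000179). Per normalized library size the summed counts of p53 TM at 6 h were 11-fold lower than those of wild type p53 (95% exact counting interval 3.57 to 55.3). They were 7.03-fold lower than those of p53 O6-meG (2.03 to 37.4), where intervals cover counting error only. edgeR called both differences (adjusted *P* = 0.000208 and 0.0151), and DESeq2 did not call the second (adjusted *P* = 0.0648). The second call was also lost without replicate 1 of p53 O6-meG or without replicate 1 or 3 of p53 TM. These fits, with 1 library left in that group, gave -2.58, -2.47 and -3.07 on the log2 scale.

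At 24 h *CASP10* was 2.60-fold lower with p53 TM than with wild type p53 (adjusted *P* = 0.00147) and 2.15-fold lower than with p53 O6-meG (adjusted *P* = 0.0197). The latter call was lost without replicate 2 of p53 O6-meG or replicate 2 or 3 of p53 TM (adjusted *P* = 0.142, 0.112 and 0.0575). The p53 TM level at 24 h differed from pGFP by 0.61 ± 0.35 on the log2 scale (adjusted *P* = 0.337). RW mutant p53 gave 4, 1 and 4 counts at 6 h and 15, 9 and 10 at 24 h, which overlapped pGFP.

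*CASP2* (ENSG00000106144.19, chromosome 7, 143288215 to 143307696, plus strand), the initiator activated by *PIDD1* in the PIDDosome, fell with wild type p53 and p53 O6-meG at 24 h. The pGFP libraries gave 37.9, 30.8 and 33.7 CPM, the wild type libraries 21.5, 20.1 and 23.4 CPM, and the p53 O6-meG libraries 23.3, 20.02 and 22.8 CPM. With p53 TM the values were 28.1, 28.8 and 25.9 CPM. These lay between the other groups without overlapping pGFP, wild type p53 or p53 O6-meG. *CASP2* fell 1.57-fold with wild type p53 (log2 -0.65 ± 0.13, adjusted *P* = 0.000204) and 1.55-fold with p53 O6-meG (adjusted *P* = 0.000398). The p53 TM level differed from pGFP by -0.30 ± 0.13, from wild type p53 by 0.35 ± 0.13 and from p53 O6-meG by 0.33 ± 0.13 on the log2 scale. None of the 3 passed the test (adjusted *P* = 0.146, 0.0523 and 0.111), and all 3 did with the replicate number as a block (adjusted *P* = 0.0115, 0.00225 and 0.00659).

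At 6 h *CASP2* was at 24.1, 30.1 and 34.0 CPM with pGFP and at 21.1, 26 and 28.3 CPM with wild type p53. The groups overlapped and the difference was -0.22 ± 0.13 on the log2 scale (adjusted *P* = 0.37). The wild type response was lower at 24 h than at 6 h by -0.43 ± 0.18 (adjusted *P* = 0.174, or 0.0136 with the replicate number as a block). The other vectors gave 24.04 to 33 CPM at 6 h, and RW mutant p53 gave 36.2, 29.1 and 31.2 CPM at 24 h. In the order of the 10 groups by mean level all 9 neighbouring pairs overlapped.

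*CASP6* (ENSG00000138794.9, chromosome 4, 109688622 to 109703583, minus strand), an executioner whose known substrates include nuclear lamins, rose with wild type p53 and rose further with time. The pGFP libraries at 6 h gave 12.99, 11.7 and 13.7 CPM and the wild type libraries 28.8, 28.8 and 30.4 CPM. At 24 h the pGFP libraries gave 16.0, 14.9 and 15.2 CPM and the wild type libraries 76.4, 64.3 and 47.4 CPM. The groups were far apart at both times, with replicate 1 the highest of the wild type libraries at 24 h. The rise was 2.29-fold at 6 h (log2 1.20 ± 0.15, adjusted *P* = 2.24e-06) and 4.08-fold at 24 h (log2 2.03 ± 0.15, adjusted *P* = 1.49e-10).

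The response of *CASP6* was larger at 24 h than at 6 h by 0.83 ± 0.21 on the log2 scale (adjusted *P* = 0.0175). It was one of 2 members, with *CASP1*, for which the change of the wild type response was called, where 3.73% of genes changed upward and 2.77% downward. Without replicate 1 of wild type p53 at 24 h the difference for *CASP6* was 0.65 with an adjusted *P* of 0.066. The call was also lost with the conflicting libraries placed by genotype field (0.83, adjusted *P* = 0.208), which moves no wild type or pGFP library. RW mutant p53 gave 13.5, 12.97 and 12.4 CPM at 6 h and 15.3, 17.1 and 13.9 CPM at 24 h, with a difference from pGFP of 0.02 ± 0.15 at 6 h and 0.01 ± 0.15 at 24 h. Exons of *CASP6* share 98 bases with *MCUB* on the opposite strand.

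With p53 O6-meG *CASP6* was at 25.6 and 23.5 CPM at 6 h and 70.8, 63.3 and 55.7 CPM at 24 h. With p53 TM it was at 12.1 and 10.8 CPM at 6 h and 46.3, 33.2 and 27.3 CPM at 24 h. As for *APAF1*, p53 TM overlapped pGFP at 6 h and lay between pGFP and wild type p53 at 24 h. The p53 O6-meG rise was 1.92-fold at 6 h (adjusted *P* = 0.000508) and 4.12-fold at 24 h (adjusted *P* = 1.81e-10), and the p53 TM rise at 24 h was 2.31-fold (adjusted *P* = 2.60e-06). Against wild type p53, p53 TM was 2.57-fold lower at 6 h (adjusted *P* = 4.85e-06) and 1.76-fold lower at 24 h (adjusted *P* = 0.000273), and against p53 O6-meG it was 2.15-fold lower (adjusted *P* = 0.000423) and 1.78-fold lower (adjusted *P* = 0.000728). The call against wild type p53 at 24 h missed the threshold in a fit of only the groups compared (adjusted *P* = 0.0563). The gap to wild type p53 changed by 0.54 ± 0.22 on the log2 scale between the times (adjusted *P* = 0.334, or 0.0179 with the replicate number as a block).

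On the scale from pGFP to wild type p53, *CASP6* with p53 TM was at -4.24% and -12.0% at 6 h and at 25.3% to 65.3% at 24 h, close to *APAF1*. At 24 h the p53 TM means were 45.0 ± 26.04% for *APAF1* and 42.8 ± 20.5% for *CASP6* (SD, n = 3), 52.2 ± 12.5% for *CASP2*, 17.7 ± 14.1% for *CASP10*, 15.04 ± 14.2% for *CASP1* and 7.82 ± 34.97% for *CASP9*. The SDs leave out the spread of the reference groups, and the order of these means was not tested. The p53 O6-meG means at 24 h lay between 62.6% for *CASP1* and 101% for *CASP6*. RW mutant p53 means at 24 h lay between -0.029% for *APAF1* and 15.7% for *CASP2*.

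*CASP1* (ENSG00000137752.23, chromosome 11, 105025397 to 105035250, minus strand), the inflammasome caspase, had 1 to 33 counts per library and rose at 24 h. The pGFP libraries held 6, 5 and 6 counts at 6 h (0.122, 0.109 and 0.105 CPM) and 1, 3 and 3 at 24 h (0.0266, 0.0680 and 0.0689 CPM). The wild type libraries held 4, 6 and 15 counts at 6 h (0.0938, 0.137 and 0.221 CPM) and 33, 29 and 16 at 24 h (0.824, 0.624 and 0.380 CPM). At 6 h the groups overlapped, and at 24 h every wild type library lay above every pGFP library. Per normalized library size the summed counts at 24 h were 10.9-fold higher (95% exact counting interval 5.03 to 27.9), and edgeR called the rise (adjusted *P* = 7.73e-06). These intervals cover counting error only. At 6 h the ratio was 1.45 (0.754 to 2.87).

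With p53 O6-meG *CASP1* held 10, 28 and 11 counts at 24 h (0.293, 0.598 and 0.315 CPM), with p53 TM 9, 5 and 4 (0.225, 0.116 and 0.0726 CPM), and with RW mutant p53 9, 5 and 3 (0.199, 0.101 and 0.0658 CPM). The p53 O6-meG libraries lay above all others but those of wild type p53, which they overlapped. Against pGFP the ratio of summed counts was 7.57 (3.41 to 19.8) with p53 O6-meG (adjusted *P* = 0.000188), 2.33 (0.930 to 6.61) with p53 TM (adjusted *P* = 0.276) and 2.17 (0.855 to 6.19) with RW mutant p53. Against wild type p53, p53 TM was 4.66-fold lower (2.76 to 8.26, adjusted *P* = 0.000778), and against p53 O6-meG it was 3.25-fold lower (1.86 to 5.92, adjusted *P* = 0.0233). The latter call was lost without replicate 2 of p53 O6-meG or replicate 2 or 3 of p53 TM (adjusted *P* = 0.183, 0.0902 and 0.140). DESeq2 did not make that call.

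The wild type response of *CASP1* was larger at 24 h than at 6 h by edgeR (log2 2.90 ± 0.75, adjusted *P* = 0.0197), which DESeq2 did not call. It missed the threshold without replicate 1 of pGFP or of wild type p53 at 24 h (adjusted *P* = 0.0642 and 0.0531), or without replicate 1 of either at 6 h (adjusted *P* = 0.0527 and 0.05002). At 6 h RW mutant p53 gave 1, 4 and 3 counts, p53 O6-meG 4 and 6, and p53 TM 4 and 6. The N-terminal part of *CASP1* closely matches its neighbour *CARD16*, and how reads shared between genes were counted is not stated.

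With time alone, in pGFP cells, *CASP9* and *CASP10* rose and *CASP8* fell between 6 h and 24 h, where 19.0% of all genes tested rose and 22.3% fell. For *APAF1* the change was 0.47 ± 0.19 on the log2 scale (adjusted *P* = 0.0528), for *CASP2* 0.21 ± 0.13, for *CASP6* 0.26 ± 0.15 and for *CASP1* -0.97 ± 0.63. With the replicate number as a block *APAF1*, *CASP2* and *CASP6* were called too (adjusted *P* = 0.00113, 0.03 and 0.0313). Each response above is set against the pGFP libraries of its own time.

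Levels between genes were compared per kilobase of exon (CPM per kb). In pGFP cells at 6 h *CASP6* (6.58 ± 0.52, SD, n = 3) and *APAF1* (5.07 ± 0.41) stood highest, followed by *CASP8* (3.96 ± 0.043), *CASP2* (3.66 ± 0.62) and *CASP9* (1.81 ± 0.064). *CASP1* (0.0282) and *CASP10* (0.00814) were far below the rest. With wild type p53 at 24 h *APAF1* reached 38.1 ± 8.7 and *CASP6* 32.3 ± 7.5 CPM per kb, above *CASP2* (2.70), *CASP8* (2.5) and *CASP9* (1.91). *CASP1* and *CASP10* stayed lowest there, at 0.154 and 0.108 CPM per kb, although they had risen.

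Across the 30 libraries, as a description over libraries that share vectors and times, log2 CPM of *APAF1* and *CASP6* had a Pearson r of 0.97, *CASP6* and *CASP10* 0.89, *APAF1* and *CASP10* 0.87, and *CASP1* and *CASP6* 0.82. *CASP2* was inversely related to *CASP6* (r = -0.61) and to *APAF1* (-0.57), and *APAF1* and *CASP9* had an r of -0.19. Among all genes tested the 3 most like *APAF1* were *GRAMD2B*, *SCN3B* and *PLCXD2* (each r = 0.99), and those most like *CASP6* were *NINJ1*, *SMTN* and *CDIP1* (each 0.99). For *CASP10* they were *NOL4L*, *TFAP2E* and *CXXC5* (0.97, 0.96 and 0.96), and for *CASP1* *ACP5*, *BMP2* and *SLC2A2* (0.91, 0.90 and 0.90). For *CASP9* the first and second were *TCAF1* and *SEMA4F* (0.97 and 0.96). The 3 most like *CASP8* were *LZIC*, *HLCS* and *ARHGAP18* (each 0.96), and those most like *CASP2* were *PHLPP1*, *STIL* and *NR2C2* (0.87, 0.86 and 0.86).

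Other genes of caspase activation were taken from 5 lists. Of 45 listed other caspases, cofactors, adaptors, inhibitors and substrates, 42 were in the table and 37 were tested, of which 6 rose with wild type p53 at 6 h, and 11 rose and 4 fell at 24 h. Over all genes tested 8.68% rose at 6 h, and 20.5% rose and 14.5% fell at 24 h, and no list was tested as a set. Among the other caspases the inflammatory *CASP4* changed by 0.01 on the log2 scale at 6 h and fell 1.21-fold at 24 h (log2 -0.27, adjusted *P* = 0.0191), and *CASP5* had at most 6 counts and was not tested. *CASP14* was not analysed here. Of 6 apoptosome and mitochondrial cofactors, none of the 6 passed edgeR's test at either time, with medians of -0.01 and 0.03 on the log2 scale.

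Of 7 adaptors tested 2 rose at 6 h and 3 at 24 h, of 9 inhibitors 1 rose at 6 h and 2 rose and 1 fell at 24 h, and of 12 substrates 3 rose at 6 h and 6 rose and 1 fell at 24 h. *PIDD1*, which assembles the platform for caspase-2, rose 4.83-fold at 6 h and 10.2-fold at 24 h (adjusted *P* = 2.54e-08 and 2.70e-11), while *CASP2* itself fell at 24 h. Its mean was 17.2 CPM with pGFP and 83.1 with wild type p53 at 6 h, and 13.8 and 141 CPM at 24 h. *NLRP3*, the sensor of an inflammasome that activates caspase-1, rose 5.49-fold at 24 h (adjusted *P* = 3.83e-09), from a mean of 2.34 to 12.9 CPM. *CFLAR*, an inhibitor related to caspase-8, rose 2.34-fold at 24 h (adjusted *P* = 1.92e-08), and *BID*, which links caspase-8 to mitochondria as its substrate, rose 2.41-fold (adjusted *P* = 5.96e-10).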

How the data were processed

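The authors aligned single-read, strand-marked libraries of RNA depleted of ribosomal RNA to hg38 with STAR 2.5.3a. They counted reads on GENCODE v27 genes with featureCounts of Subread 1.5.2. The deposited table holds these raw counts per gene, without normalization, and the strand setting and the handling of shared reads are not given in the sources used here. A deposited table of normalized signal, made by the authors by dividing each library by 1 factor, was not used for values.

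Groups were taken from the labels. The 2 libraries at 6 h whose titles name both p53 O6-meG and p53 TM were left out of the fit, which leaves 28 of 30, and both ways of placing them were alternatives. The counts were tested with edgeR 4.0.16 in R 4.3.3 (filterByExpr, TMM, all groups fitted together, quasi-likelihood test, Benjamini-Hochberg over all 21335 genes tested). CPM were taken after TMM over all 30 libraries, and gene lengths, positions and exon overlaps from GENCODE v44 (hg38). Each standard error is the fold change over the root of its F statistic, and 95% intervals use the t distribution on the residual and prior degrees of freedom of the fit. *CASP1* passed the filter through the groups in which it was high, and *CASP10* also passed with the pGFP libraries alone, both at low counts. For them, ratios of summed counts per normalized library carry exact (Clopper-Pearson) intervals. Alternatives were DESeq2 size factors, DESeq2 1.42.0, 2 other filters, a fit of only the groups compared, a replicate block, and each library left out in turn.

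All members are named. Also named are the 3 genes most correlated with each member, listed genes changed at least 2-fold with wild type p53, and the other caspases, and some of the genes these rules name are not reported here. The members and lists were chosen with earlier results of these data known. P values use the spread between libraries within groups, estimated over all groups together and moderated across genes. The main fit has no replicate block, so differences between replicate numbers count into that spread. The authors describe the libraries as biological triplicates.

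Replicate numbers pair the libraries at 24 h: residuals correlated above 0.1 in all 30 pairs of the same number (0.182 to 0.612, with a median of 0.422, where unlike numbers had a median of -0.277). At 6 h 11 of 23 pairs did (median 0.080), where 3 of 44 pairs of unlike numbers did (median -0.044). This is the same direction as at 24 h, but weaker. Residuals were taken from the mean of each group, so they cancel within a group. The values for unlike numbers are therefore tied to those for like numbers and are no separate evidence of pairing. In the p53 O6-meG and p53 TM groups at 6 h the residuals of the libraries mirror each other. No 2 libraries of a group were duplicates (chi-square per degree of freedom 6.08 to 47.4 over 26 pairs). On simulated counts for wild type p53 against pGFP at 24 h (20521 genes tested) edgeR recovered 32 of 80 genes changed by 0.5 on the log2 scale, 49 of 80 changed by 1 and 37 of 40 changed by 2, and called 6 unchanged genes. The simulated libraries shared the same profile apart from 200 changed genes and held no replicate effect. In the real comparison 20.5% of genes rose and 14.5% fell, so these numbers do not give the performance on the real libraries.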

Additional observations from a re-analysis of the deposited data

Results flagged for a closer look

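The 2 libraries at 6 h with conflicting titles entered no test, and one of them held members well above the pGFP range. In the library whose genotype field gives p53 TM, but whose column name gives p53 O6-meG, *APAF1* was at 143 CPM, *CASP6* at 25.6 CPM and *CASP10* at 0.257 CPM, where the highest pGFP library at 6 h had 42.7, 13.7 and 0.0874 CPM. In the library with the reverse labels *APAF1* was at 38.8 CPM, *CASP6* at 11.6 CPM and *CASP10* at 0.0246 CPM.

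The wild type response differed between the times for *CASP1*, by 2.90 on the log2 scale, with 1, 3 and 3 counts in the pGFP libraries at 24 h, and for *CASP6*, by 0.83. The gap between p53 TM and wild type p53 differed between the times for *APAF1*, by 1.35 on the log2 scale.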

How the results depend on the processing

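Of 4224 member values recomputed under 8 other settings or without 1 library, 4133 stayed on their side of the threshold (86 of them with the other sign, called in neither), 40 lost a call, 51 gained one, and 0 called values changed sign. The number of members called stayed the same without any 1 library in 11 of 17 comparisons, among them wild type p53 against pGFP, with 3 members at 6 h and 6 at 24 h. With the conflicting libraries placed by the genotype field 0 members were called for p53 O6-meG against pGFP, p53 TM against wild type p53 and p53 TM against p53 O6-meG at 6 h, 3 for p53 TM against p53 O6-meG and 4 for p53 TM against wild type p53 at 24 h, 1 for the change of the wild type response with time and 0 for the change of the p53 TM gap. Placed by the first part of the title, they added *CASP10* with p53 O6-meG at 6 h (1.61, adjusted *P* = 0.0200), *CASP9* for the change of the wild type response (adjusted *P* = 0.0398) and *APAF1* for pGFP with time (adjusted *P* = 0.0429) to the calls. With a replicate block 1 member (*APAF1*, adjusted *P* = 0.0088) was called for p53 O6-meG against wild type p53 at 6 h, 4 for the change of the wild type response, 2 for the change of the gap and 6 for pGFP with time, and the block ended no call. DESeq2 did not call *CASP10* for p53 TM against p53 O6-meG at 6 h or *CASP1* at 24 h. Nor did it call *CASP1* for the change of the wild type response. It added *CASP2* for p53 TM against pGFP at 24 h, *CASP9* for the change of the wild type response and *APAF1* for pGFP with time. At least 10 counts in every library left 5 members to test, of which 3 were called for p53 TM against wild type p53 and 3 for p53 TM against p53 O6-meG at 24 h. A fit of only the groups compared, with fewer libraries, called 3, 0, 0 and 5 members for p53 TM against wild type p53 at 24 h, p53 TM against p53 O6-meG at 24 h, the change of the gap and pGFP with time. Without 1 library the numbers were 2 to 3 for p53 TM against p53 O6-meG at 6 h, 2 to 5 at 24 h, 5 to 6 for p53 TM against wild type p53 at 24 h, 0 to 3 for the change of the wild type response, 0 to 1 for the change of the gap and 3 to 4 for pGFP with time. Apart from the fewer libraries or genes in some settings, the cause was not tested. Counts of 1 to 48 per library limit *CASP1* and *CASP10*.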
